A study of Mus musculus with 4 samples.

Results

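Chromosome 14 of the mouse carried 1452 of the 29838 replication initiation zones in the first of the study's zone lists (4.87%) and 1273 of the 26025 zones in the second (4.89%). Its zones were taken as all rows of both lists that name chromosome 14. The chromosome was chosen by its low zone coverage and its narrow zones in these same lists, so those values are given as a description with no test. Of the 1452 zones of set 1, 246 had their midpoint below 25 Mb and 1206 lay beyond it, and of the 1273 zones of set 2 the numbers were 218 and 1055. The other 18 autosomes, with 26419 and 22972 zones, served for comparison.

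Replication of a mammalian chromosome starts in initiation zones, stretches in which any of several sites may fire, and forks move out from them in both directions. DNA polymerase ε copies the leading strand, so the strand that carries its products switches where forks part. Polymerase-usage sequencing reads this switch from ribonucleotides that a mutant polymerase leaves in DNA. Mouse chromosomes have the centromere at one end, and positions are counted from that end.

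The samples were E14tg2a, an established line of mouse embryonic stem cells, for which the labels give 2 genotypes with 2 replicates each. The parent line carries Tet-OsTIR1::Rosa26(bi), which supplies the OsTIR1 protein under doxycycline, together with mAID-RNaseh2a::puroR(bi), a degron tag on a subunit of RNase H2, which cuts ribonucleotides out of DNA. The second line has in addition Pole1-M630F(bi), a mutant of the catalytic subunit of polymerase ε. All 4 samples received doxycycline and auxinole for 24 h, then doxycycline and IAA for 12 h. The labels do not say whether a line is 1 clone or whether the replicates were separate cultures. The lists hold no values by genotype, so parent and mutant were not compared, and each set is a single list. Library names in the labels mark replicate 1 of both genotypes as set 1 and replicate 2 as set 2. Spread is therefore given over the 18 other autosomes or between the 2 sets, and depth is unknown. Positions are in GRCm39, with the last position read as the last 1 kb bin of a zone. No gene or sequence of that build was used here.

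Chromosome 14 had many zones, but they were narrow and of low score, and they covered a smaller share of its span than was covered on each other autosome. Set 1 listed 11.9 zones per Mb on chromosome 14 against 11.6 ± 0.298 (SD, n = 18 other autosomes), rank 4 of 19 from the highest. Set 2 listed 10.4 zones per Mb against 10.1 ± 0.195, rank 2 from the highest. This direction turned when zones of low score were left out. Among zones at or above the median score of their set it was 5.57 per Mb against 5.82 in set 1 and 4.86 against 5.07 in set 2, rank 1 and 2 from the lowest. With end positions read as plain interval ends, which drops single-bin zones, set 2 had 8.97 per Mb against 9.08, while set 1 stayed higher at 10.5 against 10.3. The median zone of set 1 was 16 kb wide on chromosome 14 and 18.9 kb ± 0.943 elsewhere, and that of set 2 was 19 kb wide and 23 kb ± 0.970 elsewhere. The next lowest median widths were 17 kb on chromosome 8 in set 1 and 21 kb on chromosome 7 in set 2. Zones covered 29.8% of the chromosome in set 1 and 30.9% in set 2, against 32.1% ± 0.744 and 33.0% ± 0.655, and chromosome 7 came next with 30.2% and 31.4%. Chromosome 14 thus lay below the range of the other 18 autosomes for width and coverage in both sets.

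The authors' deposited score, 1 value per zone, has no stated unit and is compared within a set only. The median score on chromosome 14 was 5.88 in set 1 against 7.33 ± 0.527 on the other autosomes, and 6.99 in set 2 against 8.68 ± 0.733. Both were the lowest of 19, with chromosome 8 next in set 1 (5.97) and chromosome 16 next in set 2 (7.17). Per kb of zone width the gap was small: the median was 0.434 against 0.453 ± 0.0139 in set 1 and 0.427 against 0.434 ± 0.0194 in set 2. At widths of 11 to 40 kb the median score was 8.93 against 10.02 ± 0.417 in set 1, the lowest of 19, but 8.79 against 8.71 ± 0.613 in set 2.

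**Figure D1:**
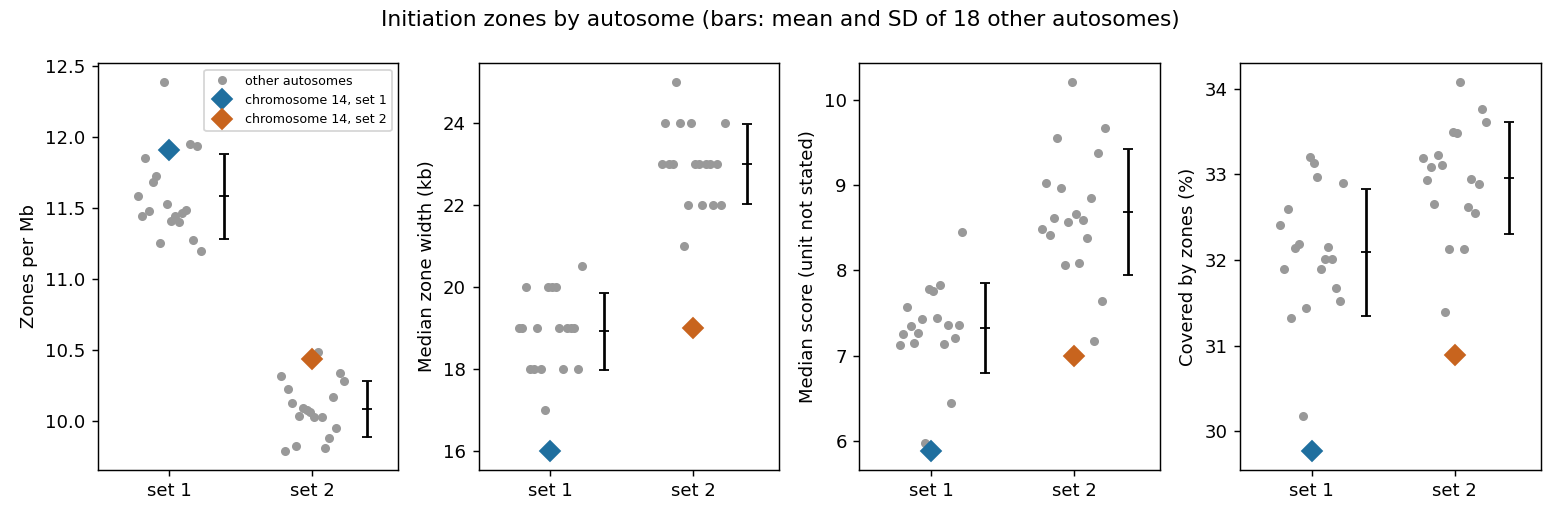
Each point is 1 autosome, with set 1 and set 2 side by side, for zones per Mb, median zone width in kb, median score and percent of the span covered, and bars give mean and SD of the 18 other autosomes. The diamonds of chromosome 14 lie near the top for zones per Mb and lowest in the other 3 panels.

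The narrow median reflected both more small zones and fewer wide ones. Zones of up to 10 kb numbered 4.69 per Mb in set 1 against 4.26 ± 0.230, and 4.04 per Mb in set 2 against 3.36 ± 0.147, where no other autosome exceeded 3.59. Zones wider than 40 kb numbered 2.81 per Mb against 3.07 ± 0.150 in set 1, the lowest but 1, and 3.12 against 3.36 ± 0.0925 in set 2, the lowest. Set 2 had a marked share of zones of a single 1 kb bin on chromosome 14, 180 of 1273 (14.1%), where all autosomes together had 10.2% and the highest of the others, chromosome 12, had 11.3%. In set 1 the single-bin zones were 177 of 1452 (12.2%), close to the 11.4% of all autosomes. The widest class held up in one set only: zones over 80 kb numbered 59 in set 1 (0.484 per Mb against 0.615 ± 0.0720) and 105 in set 2 (0.861 against 0.847 ± 0.0634). The median distance between midpoints of neighbouring zones was 71.5 kb in set 1 against 77.8 kb ± 2.78, and 86.5 kb in set 2 against 90.2 kb ± 2.18.

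Strong zones were taken as the tenth of all autosomal zones with the highest scores in each set. Their density on chromosome 14 was nearly the same in both sets, but it lay below that of the other autosomes in set 1 and among them in set 2. In set 1 there were 119 of them, 8.20% of its zones against 10% over all autosomes by construction. Their density of 0.976 per Mb was the lowest of 19 (others 1.17 ± 0.102, from 0.994 to 1.34). In set 2 there were 120, 9.43% of its zones against 10%, and their density of 0.984 per Mb lay inside the range of the others (1.01 ± 0.0925).

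The strongest zone of set 1 on this chromosome spanned 75146000 to 75263000 (118 kb) with a score of 175, rank 26 among 27871 autosomal zones. Set 2 placed a zone at 75162000 to 75248000 with a score of 128 inside it. The strongest zone of set 2 lay at 86841000 to 86922000 (82 kb) with a score of 185, rank 71 among 24245, and the first of the 2 set 1 zones that it met scored 52.6. The widest zone of set 1, at 6079000 to 6270000 (192 kb, score 169), had width rank 6 among the autosomal zones of that set, and its partner in set 2 at 6114000 to 6184000 (71 kb, score 157) was the shorter one. This pair had the best mean rank of the 875 overlapping pairs on the chromosome. The widest zone of set 2, at 52530000 to 52719000 (190 kb, score 134), met 3 zones of set 1. The next best pairs in set 1 began at 117093000, 49995000, 36807000 and 124210000. Their scores were 165 and 156, 132 and 162, 152 and 148, and 121 and 184 in set 1 and set 2. The zone of median score in set 1 spanned 9 kb, from 75504000 to 75512000, with a score of 5.87. Its counterpart in set 2 spanned 27 kb, from 105928000 to 105954000, with a score of 6.99.

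Along the chromosome, coverage was by far the lowest in 1 block of neighbouring windows. Of the 121 whole windows of 1 Mb, the median was 30.7% covered in set 1 and 31.9% in set 2, with quartiles of 26.3% and 35.4% in set 1 and of 27.5% and 36.3% in set 2. On the other autosomes the medians were 32.3% and 33.1%. The most covered windows were 118 to 119 Mb (46.3% and 41.1% in set 1 and set 2), 64 to 65 Mb (42.9% and 43.8%) and 55 to 56 Mb (40.6% and 44.4%). The least covered were 17 to 18 Mb (3.4% and 1.5%), 18 to 19 Mb (8.2% and 5.9%) and 16 to 17 Mb (7.9% and 10.7%). These 3 windows are neighbours.

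**Figure D2:**
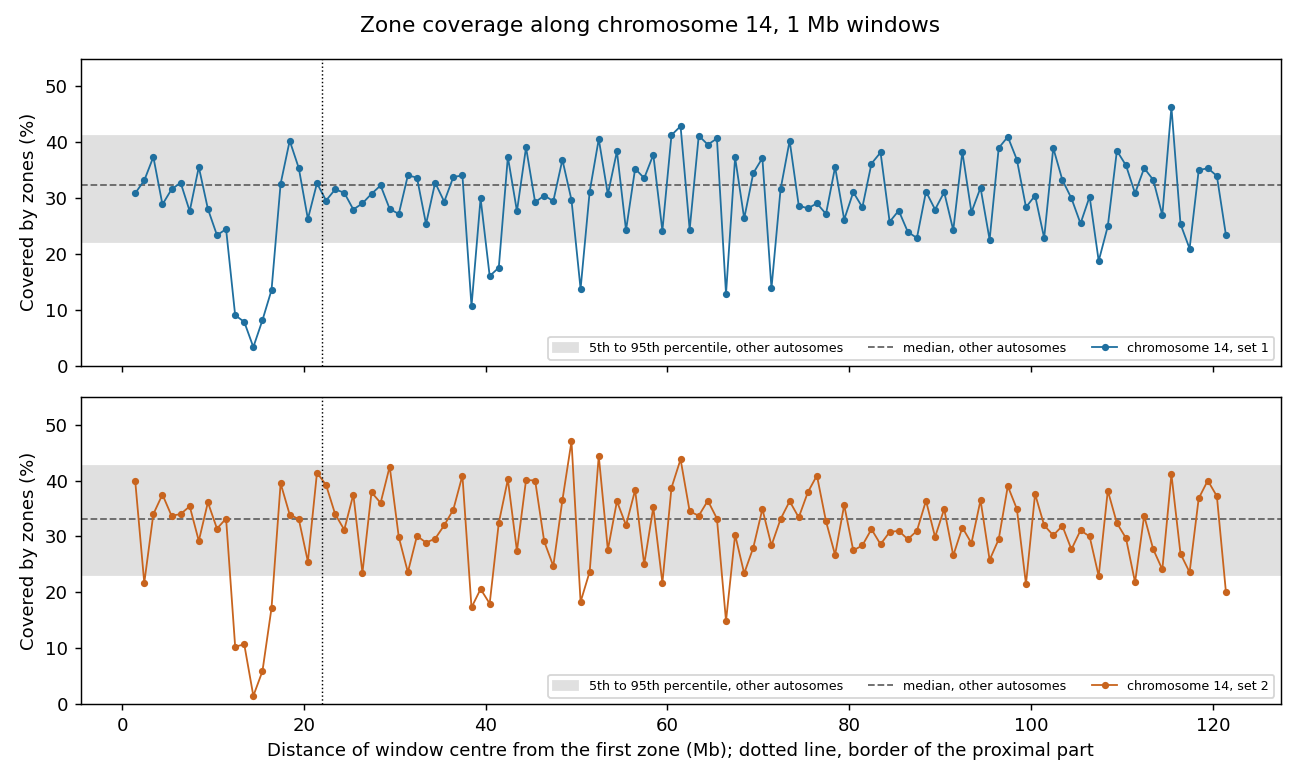
Percent of each whole 1 Mb window of chromosome 14 covered by zones, set 1 above and set 2 below, against the distance of the window centre from the chromosome's first zone in Mb. The grey band spans the 5th to 95th percentile of 2252 windows on the other autosomes, and a block of 5 neighbouring windows falls below it in both sets.

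Windows under 20% covered in both sets were frequent on chromosome 14, at 9 of 121, where all 19 autosomes had 40 of 2373 (1.69%). Only chromosome 7, with 11 of 140, had more. The 9 windows were the 5 from 15 to 20 Mb and single windows at 41, 43, 53 and 69 Mb. A run of 5 such windows was the longest on any autosome, and the longest run elsewhere was 3, on chromosome 7 from 20 Mb. At 69 to 70 Mb the coverage was 12.9% in set 1 and 14.9% in set 2, with 9 and 4 zones, and at 53 to 54 Mb it was 13.8% and 18.3%.

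The part below 25 Mb was less covered than the remainder in both sets. It was covered to 25.7% in set 1 and 27.9% in set 2, and the remainder to 30.7% and 31.5%, a difference of -4.92 percentage points in set 1 and -3.59 in set 2. On the other autosomes the same difference was -0.403 ± 2.55 in set 1 and -0.690 ± 2.55 in set 2, and it was negative on 8 of 18 in each. Only chromosome 7 had a lower value than chromosome 14 in set 1 (-7.50). In set 2, chromosome 7 (-7.20) and 1 further autosome did. Zone density below 25 Mb was 11.2 per Mb in set 1 and 9.94 in set 2, against 12.1 and 10.5 beyond it. In set 1 the median zone was 13.5 kb wide below 25 Mb and 17 kb beyond it. In set 2 the widths were 18.5 kb and 19 kb, a difference of less than 1 kb. Single-bin zones made up 10.98% below and 12.4% beyond the border in set 1, and 17.0% and 13.6% in set 2, so their order differed between the sets.

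The lower coverage of the proximal part rested on its stretch from 15 to 20 Mb, a border chosen after the values were seen. Without it, the part below 25 Mb was covered to 30.8% in set 1 and 33.5% in set 2. This was about level with the remainder in set 1 (0.189 points above it) and 1.97 points above it in set 2. Taking out the least covered block raises the rest by construction, and the remainder kept its own sparse windows. Below 15 Mb the coverage was 29.7% and 33.0%, lower than in the remainder in set 1 and higher in set 2. From 20 to 25 Mb it was 33.5% and 34.7%. The first 15 Mb differed between the sets in how this coverage was divided. Set 1 had 161 zones there with a median width of 12 kb, and set 2 had 125 with a median width of 22 kb.

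**Figure D3:**
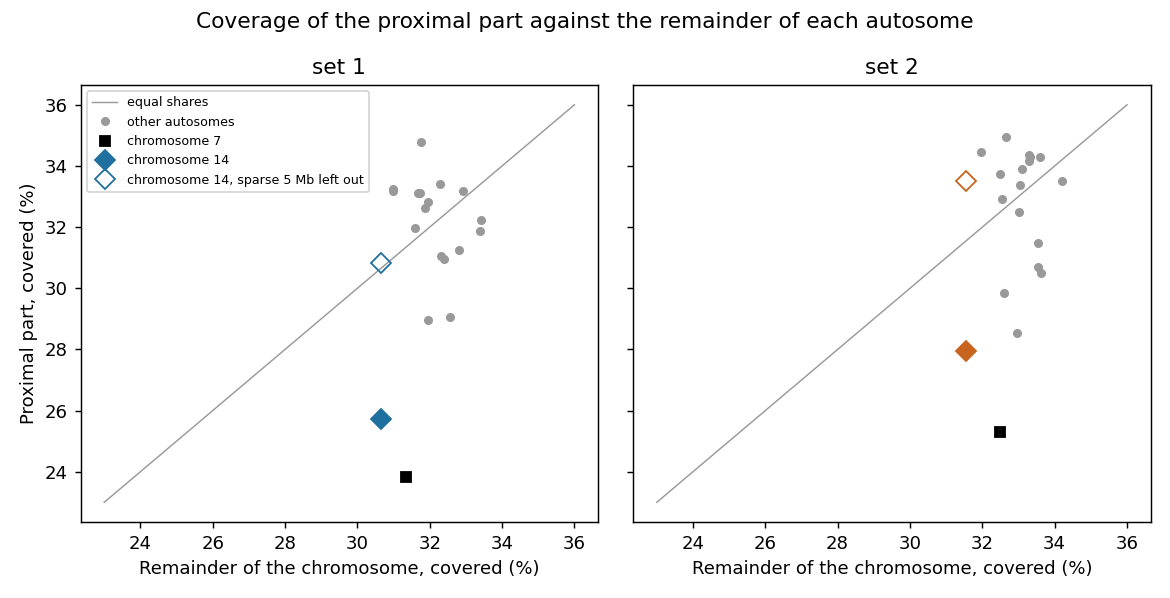
Percent covered in the proximal part (vertical axis) against the remainder of the chromosome (horizontal axis), 1 point per autosome, set 1 left and set 2 right. Chromosome 14 lies below the line of equal shares, with chromosome 7 lower still. The open diamond of chromosome 14, drawn without the sparse 5 Mb, lies just above the line in set 1 and further above it in set 2.

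The stretch from 15 to 20 Mb was the least covered of the 464 whole 5 Mb windows on the autosomes by the mean of both sets. Zones covered 8.44% of it in set 1 and 9.12% in set 2. The next lowest windows were 20 to 25 Mb on chromosome 7 (13.3% and 12.98%) and 20 to 25 Mb on chromosome 12 (17.8% and 18.5%). Set 1 listed 28 zones there and set 2 listed 45, against medians of 58 and 50 per window on the other autosomes. The zones were small, from 1 to 83 kb with a median of 11.5 kb in set 1 and from 1 to 66 kb with a median of 4 kb in set 2, and 15 of the 45 in set 2 (33.3%) were of a single bin, against 10.2% over all autosomes. In set 1 these were 4 of 28 (14.3%), near the 11.4% of all autosomes. Number was thus near the usual level in set 2 while coverage was not.

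Score per kb of width was high in this stretch, but its zones were also narrow, and zones of like width were not compared. The median score per kb of width was 1.15 in set 1 and 0.855 in set 2, against 0.434 and 0.427 for the whole chromosome. The sparse window on chromosome 12 had 0.765 and 0.563, and that on chromosome 7 had 0.518 and 0.425. In set 2 the zones lay close together, with midpoints a median of 42.8 kb apart against 86.5 kb over the chromosome. In set 1 the spacing was 89 kb. The strongest zones stood at the distal edge. Set 1 placed one at 19704000 to 19786000 (score 84.4) and set 2 one at 19726000 to 19791000 (score 124), and the next were at 19890000 to 19926000 (score 43.3) and 19879000 to 19940000 (score 86.4). Over the whole stretch, 12 of 28 zones of set 1 overlapped the other set (42.9%), where all autosomes had 56.3%. In set 2 it was 12 of 45 (26.7%), where all autosomes had 60.2%. The sparse window on chromosome 7 had 46.7% and 52.2%, and that on chromosome 12 had 40% and 51.2%. In the stretch on chromosome 14, 14 of 28 and 30 of 45 zones were up to 10 kb wide. On the other autosomes, set 2 zones averaged only 26.6% overlap for single bins and 33.0% at 2 to 10 kb. Each set also covered little of the stretch, so the low overlap was not set apart from narrow width and low coverage. Both sets covered 149 kb in common. A wide zone of set 1 at 16016000 to 16060000 met a single bin of set 2, at 16035000.

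Chromosome 14 had 3 intervals of 500 kb or more without a zone of either set, of 13 on all autosomes, 2038 kb in total. Chromosome 4 had 4 (2514 kb), chromosome 7 had 3 (2856 kb) and chromosome 5 had 2 (2619 kb). Of the 3 on chromosome 14, 2 lay in the sparse stretch, at 16633000 to 17400999 (768 kb) and 18498000 to 19257999 (760 kb). The third on chromosome 14 was at 43237000 to 43746999 (510 kb). The next longest were 69434000 to 69931999 (498 kb) and 52995000 to 53305999 (311 kb), and all 5 intervals lay in or overlapped a sparse window. None reached 1 Mb, a length reached by 1 interval each on 3 other autosomes. In set 1 alone the longest ran from 16455000 to 17657999 (1203 kb) and held zones of set 2 near both of its ends. Gaps of the assembly and mappability were not analysed here.

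Coverage of the rest of the chromosome was still low when sparse stretches were removed from every autosome alike. Without the least covered 5 Mb window of each autosome, chromosome 14 had 30.7% in set 1 against 32.4% ± 0.650 and 31.8% in set 2 against 33.2% ± 0.548, the lowest of 19 in both. Without all 1 Mb windows under 20% covered in both sets, it had 31.3% against 32.4% ± 0.482 and 32.3% against 33.3% ± 0.461, again the lowest. The median width was then still the lowest of 19, at 16 kb and 20 kb. When the 15 to 20 Mb stretch was left out of chromosome 14 alone, its coverage rose above that of chromosome 7.

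A second 5 Mb window of chromosome 14 was among the sparsest of the autosomes, 40 to 45 Mb, at rank 8 of 464 from the lowest. It was covered to 21.7% in set 1 and 25.8% in set 2 with 41 and 49 zones. Directly beyond it lay the window of 1 Mb with the highest summed score on the chromosome, 45 to 46 Mb. Its summed score was 1.66 times the autosomal mean window in set 1 and 1.63 times in set 2, from 11 and 8 zones, rank 24 of 2373 windows. Next came 122 to 123 Mb (1.43 and 1.44 times) and 66 to 67 Mb (1.24 and 1.49 times). The lowest sum was at 17 to 18 Mb, 0.233 times the mean in set 1 and 0.132 times in set 2. The most covered 5 Mb window was 55 to 60 Mb, at 33.9% and 35.7%.

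Agreement between the sets was lower on chromosome 14 than on most autosomes when zones were matched by overlap. A zone of the other set met 790 of the 1452 zones of set 1, or 54.4%, where all autosomes had 56.3%. It met 718 of the 1273 zones of set 2, or 56.4%, where all autosomes had 60.2%. These shares were the lowest but 1 and the lowest of 19. With a reciprocal overlap of 50% or more, 216 zones paired, 14.9% of set 1 and 17.0% of set 2, the lowest of 19 in each (others 18.3% ± 1.33 and 20.9% ± 1.22). With midpoints within 10 kb the order turned round: 395 zones were met, 27.2% in set 1 and 31.0% in set 2, above the means of the others (25.1% ± 1.70 and 28.8% ± 1.56). Zones also lay closer together here than on the other autosomes on average, so more midpoints can fall within a fixed distance. The share was not corrected for this. Overlap differed by width here as it did elsewhere. All 59 zones over 80 kb in set 1 and all 105 in set 2 met the other set, while 49 of 177 single-bin zones of set 1 (27.7%) and 38 of 180 of set 2 (21.1%) did. The other autosomes averaged 99.7% and 99.3% for the widest class and 27.0% ± 3.71 and 26.6% ± 4.20 for single bins. At 2 to 10 kb the share was 35.2% against 33.5% ± 2.54 in set 1 and 30.7% against 33.0% ± 2.23 in set 2. At 11 to 40 kb it was 54.4% against 56.3% ± 1.77 and 56.4% against 57.3% ± 2.86. At 41 to 80 kb it was 88.4% against 89.8% ± 1.53 and 92.0% against 90.9% ± 1.89. Within width classes the differences thus went both ways. Sequence covered by both sets came to 14.7% of the span, the lowest of 19 (others 16.4% ± 0.692). That share also depends on the coverage of each set, which was itself the lowest here. Of the sequence covered by either set, 31.9% was covered by both. This was not the lowest share, as chromosome 8 had 31.0% and chromosome 16 had 31.8%.

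By windows, the sets agreed on how much sequence was covered more closely than on how many zones covered it. Over the 121 windows of 1 Mb, Pearson's r between the sets was 0.680 for coverage (Spearman's rho 0.498), 0.654 for summed score and 0.166 for zone number (rho 0.0938). The other autosomes averaged 0.466 ± 0.112 for coverage and 0.268 ± 0.108 for zone number. From 25 Mb on, over 100 windows, r was 0.554 for coverage and 0.0768 for zone number, the lowest of 19 for number, where the others ranged from 0.0823 to 0.442. That rank held for this cut and coefficient only. Over all 121 windows, r for number had rank 16 of 19 from the highest. By rho from 25 Mb on, chromosome 10 was lower (0.0348 against 0.0366). Without the sparse stretch, r for coverage was 0.516. Windows of 1 chromosome are neighbours and come from the same libraries, so these values are descriptions and carry no p-value.

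The disagreement in number was seen in 5 Mb windows as well as in 1 Mb windows. In 5 Mb windows, the number of zones in set 1 minus that in set 2 had an SD of 12.99 on chromosome 14, against 6.75 ± 1.11 on the others, of which the highest was 9.14 on chromosome 18. It ran from -17 to 35, and no other autosome went below -14 or above 28. Without the sparse stretch the SD was 12.2, and from 25 Mb on it was 12.9, each the highest of 19. Differences of 20 or more in size were seen in 4 of 24 windows (16.7%) and in 21 of 440 on the other autosomes (4.77%). Differences of 10 or more were about as frequent as elsewhere, with 11 of 24 windows (45.8%) against 180 of 440 (40.9%). In 1 Mb windows the SD was 3.78 against 2.91 ± 0.201, also the highest.

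In 19 of the 24 windows (79.2%) the set that listed more zones had the narrower median zone, and in 5 it had the wider one. On the other autosomes the former held in 320 of 440 windows (72.7%). Among the 5 exceptions, 30 to 35 Mb had 62 zones of 20 kb in set 1 and 56 of 13.5 kb in set 2. The windows with the largest differences in number were of the first kind. From 55 to 60 Mb set 1 had 74 zones with a median width of 12 kb and set 2 had 39 with a median of 35 kb, yet coverage was 33.9% and 35.7%. From 75 to 80 Mb the numbers were 62 zones of 16.5 kb and 36 of 44.5 kb, with 31.6% and 36.3% covered. From 90 to 95 Mb they were 76 of 9.5 kb and 53 of 25 kb. The order was opposite from 70 to 75 Mb, with 45 zones of 25 kb in set 1 and 62 of 12 kb in set 2, and from 15 to 20 Mb. Across the 24 windows, the difference in number and the log2 ratio of median widths had r = -0.898, the most negative of 19 (others -0.638 ± 0.126). The sparse window, at -17 and a log2 ratio of 1.52, was included, and r was not taken without it. The difference in number also spread more widely here (SD 12.99 against 6.75), which can by itself make r larger in size. Both quantities come from the same zones, and within a window the 2 sets mostly covered similar shares, so some negative relation follows from their construction. Set 1 varied more than set 2 in this respect. Zone number over the 5 Mb windows had an SD of 11.1 in set 1, the highest of 19 (others 5.56 ± 0.974), and of 7.04 in set 2, inside the range of the others.

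**Figure D4:**
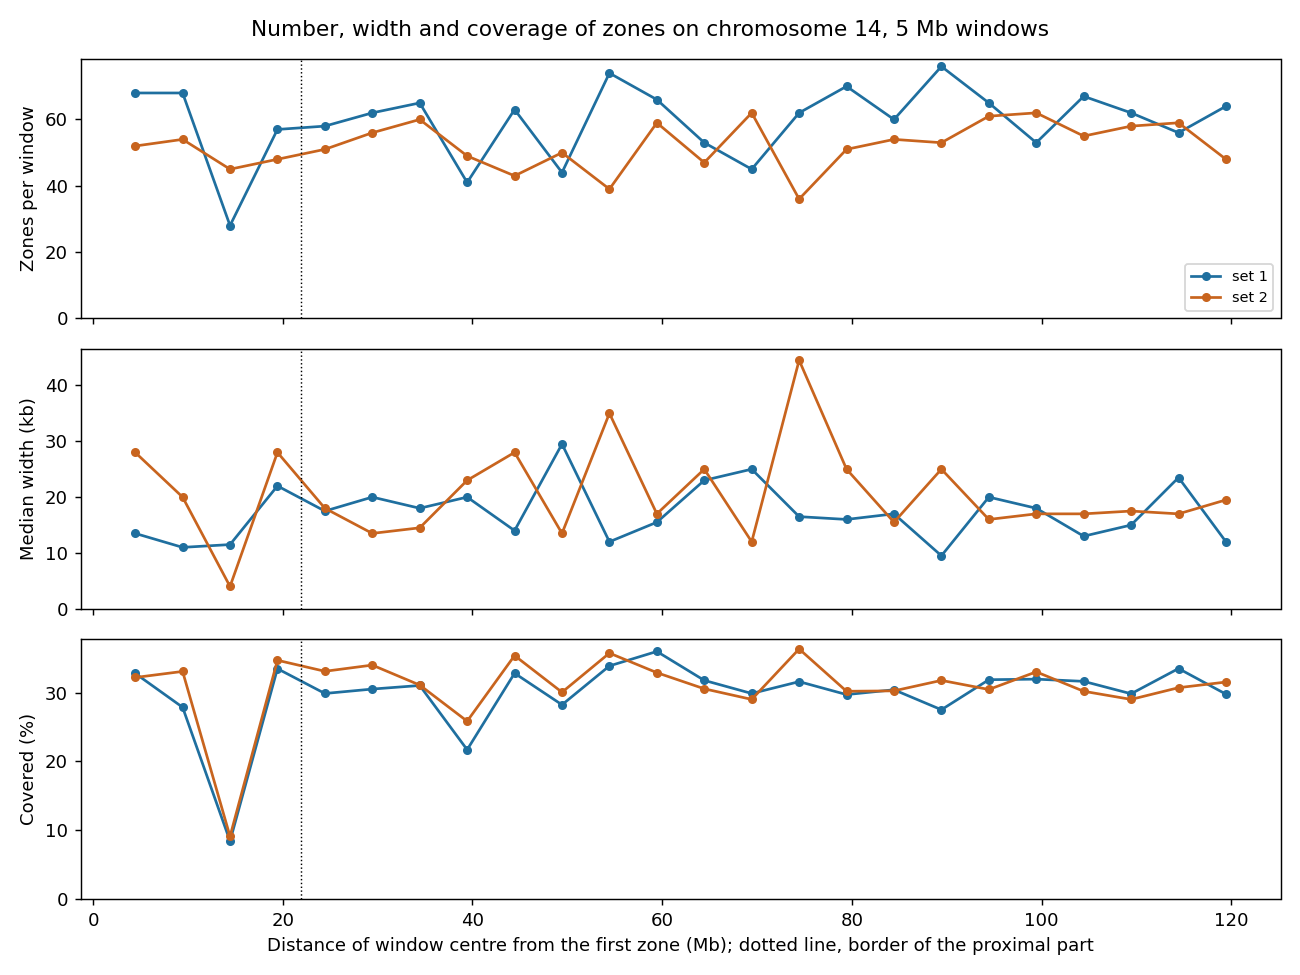
Zones per window, median zone width in kb and percent covered for the 24 whole 5 Mb windows of chromosome 14, against the distance of the window centre from the first zone in Mb, set 1 in blue and set 2 in orange. In 19 of the 24 windows the lines for number and width part in opposite directions, while those for coverage stay closer together, and all coverage values are lowest in the sparse window.

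**Figure D5:**
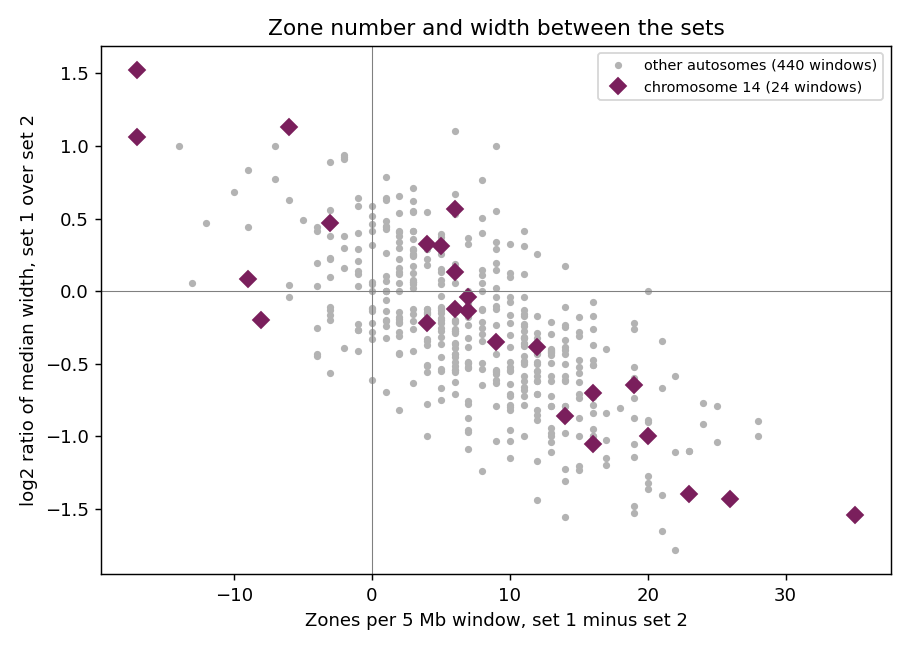
Each point is a whole 5 Mb window, with the number of zones in set 1 minus set 2 on the horizontal axis and the log2 ratio of median zone width, set 1 over set 2, on the vertical axis. The 24 windows of chromosome 14 lie along a falling line from -17 to 35. Both ends of this range pass those of the 440 windows of the other autosomes, but most of the 24 lie within them.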

How the data were processed

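Libraries came from alkali-cleaved genomic DNA with fragments of 300 to 2000 nt cut from a gel, per the labels' protocols. Alignment used Bowtie2 and GRCm39, per the submitters' processing notes. The labels name no zone caller and do not say whether parent libraries entered the call. The 2 deposited lists give, per zone, a first and last position on a 1 kb grid and a score of unknown scale.

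Width counted both end bins. Density and coverage refer to the stretch bounded by the outermost zones of the 2 lists, 121.98 Mb on chromosome 14. Zones were placed by midpoint into whole 1 Mb and 5 Mb windows counted from position 0. Overlap meant at least 1 shared bin. X and Y were left out of comparisons. No test was run, because the chromosome was chosen on these values and each set is 1 list. Members, lists and regions were chosen with earlier results of these data known. Named regions followed a fixed rule (strongest, widest, median, best pairs, extreme windows, longest zone-free intervals), apart from the sparse 15 to 20 Mb stretch, the other sparse windows and the 5 Mb windows with unequal zone numbers, which were picked by their values. Functions were tested on 5 simulated pairs of lists and matched direct counting in all 5. Python 3.11.15, NumPy 2.4.6, pandas 2.3.3, SciPy 1.17.1 and Matplotlib 3.10.9 were used. No gene was placed, as annotation of this build was not used here.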

Additional observations from a re-analysis of the deposited data

How the results depend on the processing

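Values here are means of both sets, mostly as chromosome 14 minus the mean of the other autosomes. Set 1 and set 2 taken alone gave 0.322 and 0.351 zones per Mb, -2.92 and -4 kb in width, -19.7% and -19.5% in score, -2.32 and -2.07 points in coverage, -2.16 and -4.07 points in overlap, and -4.92 and -3.59 points for the proximal part; with 1 list per set this is the only spread between sets. With zones at or above the median score only, the density difference turned from 0.337 to -0.226 zones per Mb, the width difference was -1.36 kb, the score difference -8.04% instead of -19.6%, the overlap difference -6.96 points and zone-free intervals numbered 5. Plain interval ends, which drop single-bin zones, gave 0.0399 zones per Mb, 0.197 in set 1 and -0.117 in set 2. Without intervals of 500 kb or more, density differed by 0.489 per Mb, coverage by -1.79 points and the proximal part by -2.40. Score per kb differed by -2.86%. Midpoints within 10 kb turned the overlap difference from -3.12 to 2.15 points. A border at 20 Mb gave -6.53 points for the proximal part. Window agreement in coverage was 0.901 in 5 Mb windows, but 0.624 there from 25 Mb on and 0.542 by rank. In 1 Mb windows it was 0.554 from 25 Mb on and 0.498 by rank. Set 2 alone had 5 zone-free intervals, a minimum of 300 kb gave 5 and 1 Mb gave 0.

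Chosen after the values were seen: without 15 to 20 Mb, density differed by 0.502 per Mb, score by -19.2%, coverage by -1.27 points and the proximal part by 1.08 points (main -4.25). Window agreement in coverage was then 0.516 in 1 Mb windows and 0.598 in 5 Mb windows. Agreement by zone number was 0.166. Coverage differed by -1.55 points without each autosome's sparsest 5 Mb and by -0.986 without sparse 1 Mb windows. Beyond what each removal does by construction, the cause was not tested.

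No paired analysis was possible because neither deposited list separates parent from mutant libraries. Sequence covered by both sets has no value with either set left out. Depth is unknown, so counting error cannot be given.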
